A study of Mus musculus with 8 samples.

Results

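The genes described here are 34 genes of the endoplasmic reticulum (ER) stress response, also called the unfolded protein response, in retinal pigment epithelium (RPE) of *Bbs8*-/- and *Bbs8*+/+ mice. They were listed by name and function, with earlier results of these data known. They comprise 6 stress sensors and transcription factors, 7 genes of the arm that runs through ATF4 and CHOP, 10 ER folding genes, 10 genes of ER-associated degradation and *Sec61b* of the translocation channel. Heat shock proteins of the Hsp and J-domain families, among them *Hspa5*, were not included. All 34 were matched to an identifier among the 31053 gene identifiers of the count files, and 33 passed the filter of at least 1 CPM (counts scaled to the size of the library) in at least 4 of the 8 libraries, as did 12889 genes in all. RPE sheets had been isolated at postnatal day 29 from untreated mice of the strain C57/Bl6, 4 wild type (*Bbs8*+/+) and 4 lacking *Bbs8* (*Bbs8*-/-), with the sex not determined. The knockout is not restricted to the RPE, so the photoreceptors and all other cells of these animals lacked *Bbs8* too. Each animal was a biological replicate, and every mean ± SD below is over the 4 libraries of a genotype.

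Proteins that are secreted or inserted into membranes fold in the ER with the help of chaperones and of enzymes that form disulfide bonds. When unfolded proteins accumulate, 3 sensors in the ER membrane respond. IRE1 (*Ern1*) splices the *Xbp1* mRNA so that it encodes an active transcription factor, PERK (*Eif2ak3*) phosphorylates eIF2 and thereby slows translation while favouring that of *Atf4*, and ATF6 is cut in the Golgi to release its transcription factor part. XBP1 and ATF6 switch on folding and degradation genes, and ATF4 switches on *Ddit3* (CHOP), amino acid synthesis genes and the phosphatase subunit that restores translation. The RPE, which secretes many proteins and takes up outer segment membranes daily, depends on this system for its protein load. The libraries count the 3′ end of each mRNA, so they show the abundance of these transcripts and do not show *Xbp1* splicing, phosphorylation of eIF2 or cleavage of ATF6.

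Depth was similar across libraries, with 2495094 to 3093428 counts on genes per *Bbs8*+/+ library and 2389835 to 2736289 per *Bbs8*-/- library, and 3 counts, taken as a floor that covers counting error only, corresponded to 0.970 to 1.26 CPM. Reads on no annotated gene made up 17.0% to 18.4% of a *Bbs8*+/+ library and 19.8% to 20.6% of a *Bbs8*-/- library, without overlap, and 14115 to 14496 and 13657 to 14084 genes had counts. *Ttc8*, the gene also known as *Bbs8*, stood at 47.6 ± 10.3 CPM (SD) in *Bbs8*+/+ and 4.70 ± 1.97 CPM in *Bbs8*-/- RPE, as the labels require (edgeR adjusted p = 2.47e-11). *Bbs8*+/+ replicate 1 stood apart from the other *Bbs8*+/+ libraries, with a chi-square per degree of freedom of 6.07 to 7.51 against each of them and of 2.87 to 3.41 among the other 3. It was the lowest or the highest *Bbs8*+/+ library for 23 of the 33 tested members, against 10 to 18 for each of the others, and results that rest on it are given with and without it. Markers of other cell types differed between genotypes. Summed photoreceptor markers were at 52489 to 56388 CPM in *Bbs8*+/+ and 21941 to 22722 CPM in *Bbs8*-/- libraries, lens markers at 3291 to 3525 and 451 to 503 CPM, erythrocyte markers at 5155 to 5719 and 1985 to 2218 CPM, and markers of Müller and reactive glia at 3118 to 3245 and 4298 to 4503 CPM. The glial list shares *Rlbp1* with the RPE list, and this gene alone was at 1839 ± 61.5 and 1889 ± 56.7 CPM. Of the 10 glial markers 6 rose and none fell, where 5.46% of all tested genes rose. *Rlbp1*, *Aqp4*, *Slc1a3* and *Vim* did not pass the test. The summed RPE markers were high in every library, at 14643 to 15480 CPM in *Bbs8*+/+ and 13755 to 14014 CPM in *Bbs8*-/- without transthyretin (*Ttr*), and at 35468 to 36485 and 43712 to 47181 CPM with it. The part of these differences, and of the reads on no gene, in the results on ER stress genes was not tested, and in such bulk tissue fewer cells of a type and less RNA per cell cannot be told apart.

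The ER stress genes did not move as a block in *Bbs8*-/- RPE. Of the 33 tested members, 5 rose (*Xbp1*, *Ppp1r15b*, *Pdia6*, *Manf* and *Selenos*), 3 fell (*Atf4*, *Atf6b* and *Pdia4*) and 25 did not pass an adjusted p of 0.05 in edgeR's quasi-likelihood F test with Benjamini-Hochberg adjustment over all tested genes. The 8 members past the threshold are 24.2% of those tested, where 12.3% of all tested genes passed, 5.46% higher and 6.8% lower. All 8 were among the 27 members whose mean reached 10 CPM, and of all genes at that level 17.3% passed. Without TMM, scaled by the library total, the split of 5 higher and 3 lower became 8 higher and 1 lower, and that of all genes went from 704 higher and 877 lower to 1005 and 657. The log2 fold changes of the members had a median of 0.15 and ran from -1.18 to 1.46, with 21 of 33 above 0, and all tested genes had a median of 0.02, with 51.8% above 0. For 7 members every *Bbs8*-/- library was above every *Bbs8*+/+ library, where 7.42% of all tested genes were, and for 1 member, *Atf4*, every one was below, where 8.62% of all tested genes were. The sizes were modest, with folds of 1.34 to 1.67 for the 5 members that rose.

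**Figure D1:**
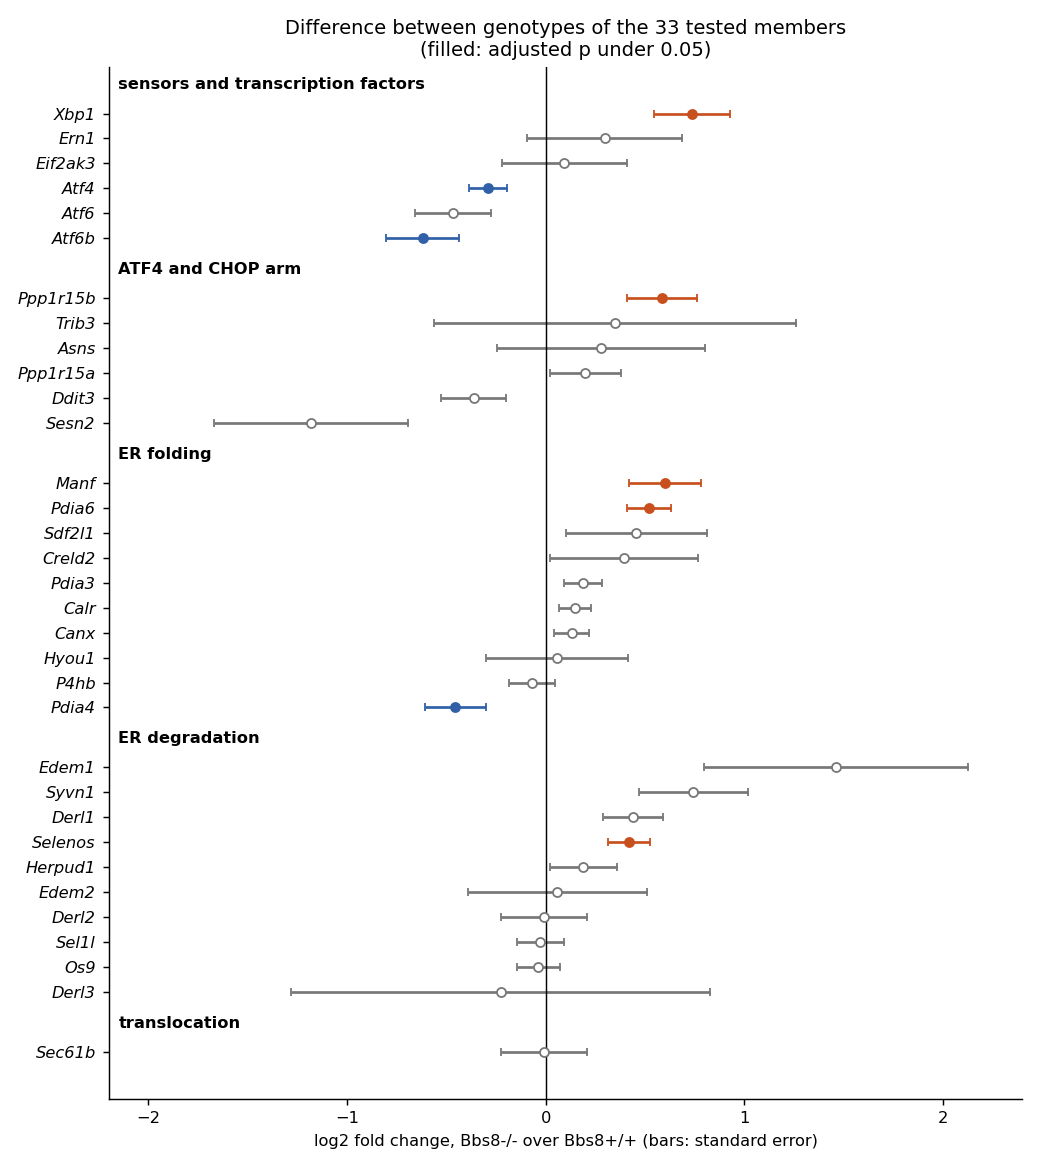
Log2 fold change (*Bbs8*-/- over *Bbs8*+/+, 4 libraries each) of the 33 tested members, grouped by role, with bars of 1 standard error. Filled points passed an adjusted p of 0.05, with 5 higher (orange) and 3 lower (blue), and the widest bars belong to genes with few counts such as *Trib3*, *Derl3* and *Edem1*.

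Among the 6 sensors and transcription factors, *Xbp1* rose and *Atf4* and *Atf6b* fell, 50% against 12.3% of all tested genes. *Xbp1* (ENSMUSG00000020484, GRCm38 chr11:5520659-5525893, + strand), whose spliced mRNA encodes the transcription factor of the IRE1 arm, was at 21.3, 34.7, 29.8 and 32.7 CPM in the *Bbs8*+/+ libraries and at 49.7, 53.0, 46.0 and 48.6 CPM in the *Bbs8*-/- libraries. Every knockout library lay above every wild-type library, and the lowest value was that of *Bbs8*+/+ replicate 1. The means were 29.6 ± 5.89 and 49.3 ± 2.91 CPM, a 1.67-fold rise (log2 fold change 0.74, SE 0.193, edgeR adjusted p = 0.00710). *Ern1*, which encodes the IRE1 sensor that splices this mRNA, was at 6.77, 5.22, 17.2 and 10.4 CPM and at 5.34, 15.4, 11.2 and 16.1 CPM, so its libraries spread about as widely within a genotype as between them (log2 fold change 0.30, SE 0.389, edgeR adjusted p = 0.725).

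*Atf4* (ENSMUSG00000042406, chr15:80255184-80257541, + strand), the transcription factor whose translation is favoured when eIF2 is phosphorylated, was at 365, 297, 287 and 303 CPM in *Bbs8*+/+ and at 266, 231, 266 and 261 CPM in *Bbs8*-/- libraries. The genotypes did not overlap, with the highest value in *Bbs8*+/+ replicate 1 and the lowest in *Bbs8*-/- replicate 2. From 313 ± 35.1 to 256 ± 16.7 CPM, the mRNA fell by 0.29 on the log2 scale (SE 0.0947, edgeR adjusted p = 0.0380). The call was lost without *Bbs8*+/+ replicate 1 (log2 fold change -0.21, adjusted p = 0.136) and without each of *Bbs8*+/+ replicates 2 and 4 and *Bbs8*-/- replicates 2, 3 and 4, and also under scaling by library size alone (-0.20, adjusted p = 0.180). *Eif2ak3*, which encodes the PERK kinase upstream of *Atf4* translation, was at 11.5, 16.4, 17.99 and 11.9 CPM and at 8.21, 15.05, 15.6 and 22.4 CPM, with a log2 fold change of 0.09 (SE 0.314, adjusted p = 0.906).

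The ATF6 family genes were both at lower means in *Bbs8*-/- RPE, and only the fall of *Atf6b* passed the test. *Atf6b* (ENSMUSG00000015461, chr17:34647146-34655074, + strand), the relative of *Atf6* that is also cut in the Golgi, was at 66.7, 47.0, 69.9 and 59.1 CPM in *Bbs8*+/+ and at 34.1, 49.8, 43.2 and 30.7 CPM in *Bbs8*-/- libraries. The ranges overlapped because *Bbs8*-/- replicate 2 lay above *Bbs8*+/+ replicate 2. *Atf6b* fell by 0.62 on the log2 scale (60.7 ± 10.2 to 39.5 ± 8.68 CPM, SE 0.182, edgeR adjusted p = 0.0188), a call lost when *Bbs8*+/+ replicate 3, *Bbs8*-/- replicate 1 or *Bbs8*-/- replicate 4 was left out, with adjusted p of at most 0.0879. *Atf6* itself was at 34.9, 49.2, 51.1 and 46.5 CPM and at 30.8, 39.4, 30.4 and 30.4 CPM. Here *Bbs8*+/+ replicate 1 and *Bbs8*-/- replicate 2 were the libraries that made the ranges overlap. Its log2 fold change of -0.47 (SE 0.193) did not pass with all libraries (edgeR adjusted p = 0.120) and passed without *Bbs8*+/+ replicate 1 (-0.58, adjusted p = 0.0499).

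In the arm of ATF4 and CHOP, 1 of 6 tested genes rose, *Ppp1r15b*, and none fell, 16.7% against 12.3% of all tested genes. *Ppp1r15b* (ENSMUSG00000046062, chr1:133131143-133139783, + strand) encodes CReP, the constitutive subunit that directs a phosphatase to eIF2 and so keeps translation running. It was at 33.5, 34.7, 31.9 and 38.6 CPM in *Bbs8*+/+ and at 53.8, 45.9, 52.8 and 55.9 CPM in *Bbs8*-/- libraries, without overlap and with a narrow spread in both genotypes. The 1.5-fold rise from 34.7 ± 2.88 to 52.1 ± 4.35 CPM had a log2 fold change of 0.59 (SE 0.177, edgeR adjusted p = 0.0228), and the adjusted p reached 0.0693 at most when *Bbs8*+/+ replicate 2, *Bbs8*+/+ replicate 3 or *Bbs8*-/- replicate 4 was left out. *Ppp1r15a*, which encodes GADD34, the stress-induced counterpart of CReP, was at 45.4, 41.4, 57.2 and 35.7 CPM and at 47.2, 44.4, 56.8 and 57.7 CPM. Its libraries overlapped between genotypes, and the log2 fold change was 0.20 (SE 0.179, adjusted p = 0.564).

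*Ddit3*, which encodes CHOP, the transcription factor widely used as a readout of unresolved ER stress, did not pass the test. It was at 80.9, 83.2, 65.4 and 72.8 CPM in *Bbs8*+/+ and at 42.3, 50.9, 68.4 and 73.4 CPM in *Bbs8*-/- libraries. Replicates 1 and 2 of *Bbs8*-/- lay below all wild-type libraries and replicates 3 and 4 lay within their range. The log2 fold change was -0.36 (SE 0.163, edgeR adjusted p = 0.162). The other genes of this arm had few counts. *Sesn2*, a stress-induced inhibitor of mTORC1 signalling, was at 6.32 to 10.5 CPM and 1.79 to 6.64 CPM (log2 fold change -1.18, SE 0.488, adjusted p = 0.121), and *Asns*, the asparagine synthetase, was at 3.36 to 10.2 CPM and 2.51 to 11.2 CPM (0.28, SE 0.523, adjusted p = 0.818). *Trib3*, a pseudokinase induced by CHOP, had 2 to 11 counts per library and a log2 fold change of 0.35 (SE 0.911, adjusted p = 0.874). *Chac1*, a glutathione-degrading enzyme induced by ATF4, was not tested, with 10, 0, 2 and 0 counts in *Bbs8*+/+ and 0, 0, 0 and 13 counts in *Bbs8*-/- libraries, so a difference in it was not detectable at this depth.

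Of the 10 folding genes, *Pdia6* and *Manf* rose, *Pdia4* fell and 7 did not pass, so 30% passed against 12.3% of all tested genes. *Pdia6* (ENSMUSG00000020571, chr12:17266545-17284770, + strand), a protein disulfide isomerase that also binds the IRE1 and PERK sensors, was at 106, 112, 104 and 120 CPM in *Bbs8*+/+ and at 172, 161, 151 and 151 CPM in *Bbs8*-/- libraries. The highest wild-type library was well below the lowest knockout library. Its 1.43-fold rise (111 ± 7.16 to 159 ± 10.2 CPM, log2 fold change 0.52, SE 0.112) had the smallest adjusted p of the 33 members, 9.88e-04 in edgeR. *Manf* (ENSMUSG00000032575, chr9:106838312-106891979, - strand), a secreted ER stress protein with neuroprotective activity, was at 26.7, 40.3, 40.9 and 46.5 CPM and at 63.2, 56.3, 62.0 and 52.4 CPM. The groups did not overlap, and *Bbs8*+/+ replicate 1 was again the lowest library. *Manf* rose 1.52-fold, from 38.6 ± 8.37 to 58.5 ± 5.06 CPM (log2 fold change 0.60, SE 0.180, edgeR adjusted p = 0.0214), and did not pass without *Bbs8*+/+ replicate 1 (0.46, adjusted p = 0.0951), *Bbs8*-/- replicate 1 or *Bbs8*-/- replicate 3. The annotated 3′ ends of *Pdia6* and *Manf* overlap exons of *Atp6v1c2* and *Dcaf1* on the other strand, as those of *Ddit3*, *Ppp1r15a* and *Syvn1* overlap *Mars*, *Tulp2* and *Mrpl49*, and since the strand setting of the counting is not given in the sources used here, reads of these partners cannot be told apart.

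*Pdia4* (ENSMUSG00000025823, chr6:47796141-47813430, - strand), another disulfide isomerase, differed from *Pdia6* in direction. It was at 147, 97.7, 89.1 and 113 CPM in *Bbs8*+/+ and at 63.6, 76.3, 78.8 and 107 CPM in *Bbs8*-/- libraries, where *Bbs8*-/- replicate 4 exceeded *Bbs8*+/+ replicates 2 and 3. *Pdia4* fell by 0.46 on the log2 scale (112 ± 25.5 to 81.4 ± 18.3 CPM, SE 0.153, edgeR adjusted p = 0.0446), and without *Bbs8*+/+ replicate 1, its highest library, the log2 fold change was -0.29 (adjusted p = 0.222). It also missed the threshold without *Bbs8*+/+ replicate 4 or any of *Bbs8*-/- replicates 1, 2 and 3, with DESeq2 (adjusted p = 0.0683) and under scaling by library size (adjusted p = 0.129). The abundant lectin chaperones that hold glycoproteins in the ER showed small differences. *Calr* was at 472 ± 29.9 and 523 ± 32.1 CPM (log2 fold change 0.15, SE 0.0805, adjusted p = 0.274), *Canx* at 403 ± 34.3 and 442 ± 39.9 CPM (0.13, SE 0.0871, adjusted p = 0.394), and *Pdia3*, the isomerase that works with both, at 218 ± 12.4 and 249 ± 21.7 CPM (0.19, SE 0.0967, adjusted p = 0.240). *P4hb*, the founding protein disulfide isomerase, was at 143 ± 6.35 and 136 ± 17.1 CPM (-0.07, SE 0.115, adjusted p = 0.791). The less abundant *Sdf2l1*, *Creld2* and *Hyou1*, all known to be induced by ER stress, had log2 fold changes of 0.46 (SE 0.353), 0.40 (SE 0.373) and 0.06 (SE 0.357), with adjusted p from 0.488 to 0.958.

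**Figure D2:**
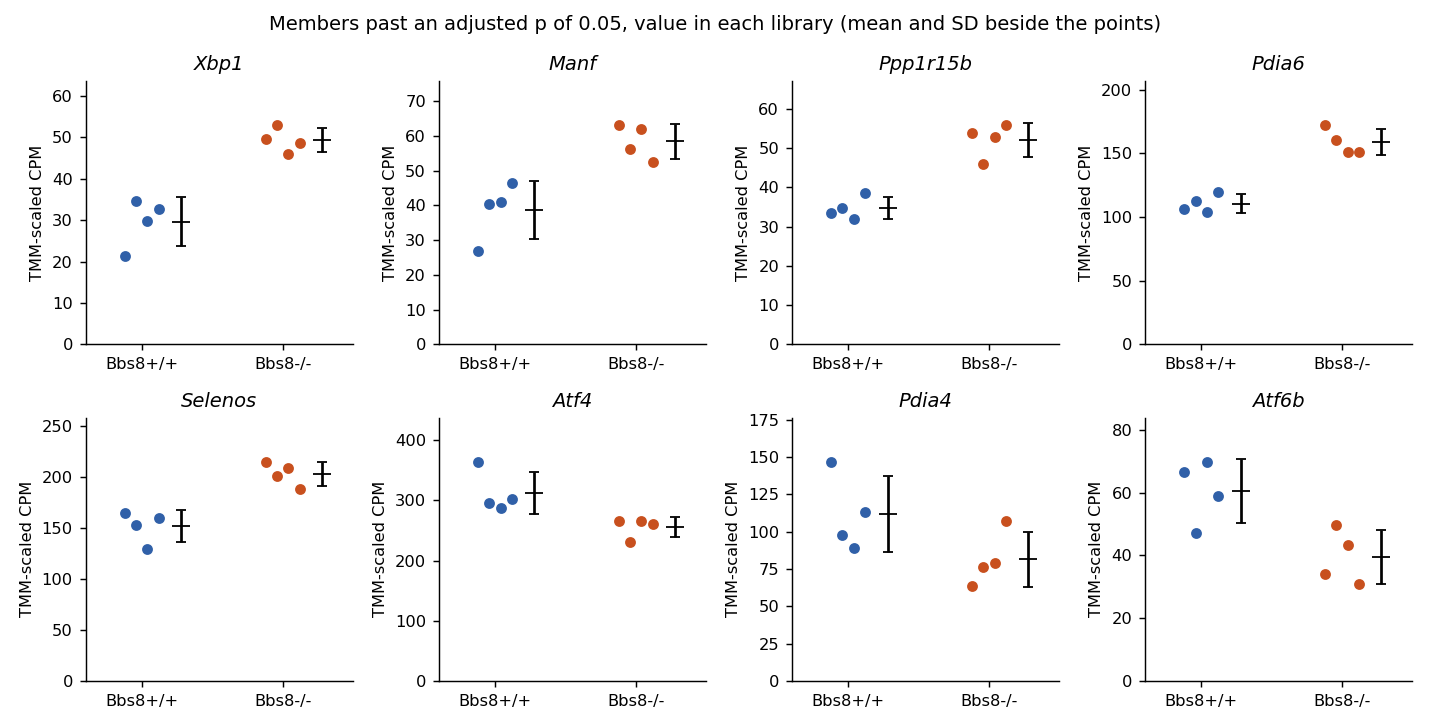
Level of the 8 members past an adjusted p of 0.05 in each of the 4 *Bbs8*+/+ (blue) and 4 *Bbs8*-/- (orange) libraries in TMM-scaled CPM, with mean and SD beside the points. The genotypes do not overlap for *Xbp1*, *Manf*, *Ppp1r15b*, *Pdia6*, *Selenos* and *Atf4*, and overlap for *Pdia4* and *Atf6b*.

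Many ER stress genes carry a DNA element in the promoter that XBP1 and ATF6 recognise. These stretches are shown for the members that carry one. The ER stress element (ERSE) was searched on both strands as CCAAT and CCACG with 9 bases between them, in RefSeq promoters of GRCm38.p6 that run from 250 bases before to 50 bases after each start and that covered 29 of the 34 members (not *Atf6*, *Derl1*, *Hyou1*, *Manf* and *Ppp1r15b*). It was present in the promoters of 6 members and of 0.137% of the 27025 genes in the table. These are *Pdia6* (chr12:17266476-17266524, + strand), *Calr* (chr8:84847060-84847108, - strand), *Canx* (chr11:50325785-50325833, - strand), *Creld2* (chr15:88819505-88819553, + strand), *Derl3* (chr10:75893227-75893275, + strand) and *Syvn1* (chr19:6046517-6046565, + strand), beside *Hspa5* (chr2:34772010-34772058, + strand), which is no member. The lines read 5′ to 3′ on the strand of the gene, with the element in capitals, reversed and complemented in *Calr*, *Creld2* and *Derl3*.
Pdia6: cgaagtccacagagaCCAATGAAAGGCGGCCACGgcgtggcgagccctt
Calr: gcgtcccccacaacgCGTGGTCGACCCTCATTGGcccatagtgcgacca
Canx: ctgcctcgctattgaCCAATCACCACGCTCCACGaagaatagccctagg
Creld2: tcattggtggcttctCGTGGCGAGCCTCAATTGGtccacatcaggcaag
Derl3: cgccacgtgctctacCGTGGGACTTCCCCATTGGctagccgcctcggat
Syvn1: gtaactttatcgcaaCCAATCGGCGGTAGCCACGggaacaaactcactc
Hspa5: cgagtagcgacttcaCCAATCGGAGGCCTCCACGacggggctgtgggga

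Of these 6 members, *Pdia6* rose (log2 fold change 0.52) and the others did not pass the test, where 12.3% of all tested genes passed. Their log2 fold changes were 0.15 (*Calr*), 0.13 (*Canx*), 0.40 (*Creld2*), -0.23 (*Derl3*, SE 1.05) and 0.74 (*Syvn1*). *Hspa5* rose too (0.35, edgeR adjusted p = 6.23e-04). Whether genes with the element differ from those without it was not tested. A second form, ERSE-II (ATTGG and CCACG with 1 base between them), was found in 0.0444% of genes and in the promoter of the member *Herpud1* (chr8:94386362-94386402, + strand).
Herpud1: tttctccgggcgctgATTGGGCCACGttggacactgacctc
The element bound by ATF4 together with C/EBP factors was searched as TGATG and AA with 1 base between them and was in the promoters of 4.51% of genes, among them the members *Asns* (chr6:7693210-7693247, - strand), *Chac1* (chr2:119351034-119351071, + strand), *Herpud1* and *Trib3*. In the first of these it ended 15 bases before the start, and the second carried it reversed and complemented. In *Trib3* it lay past the start.
Asns: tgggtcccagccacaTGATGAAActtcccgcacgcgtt
Chac1: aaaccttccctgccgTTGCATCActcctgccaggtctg
None of the 4 passed the test between genotypes, where 12.3% of all tested genes did, and *Chac1* was not tested. The XBP1 element core TGACGTGG was in the promoters of 0.714% of genes and of none of the 29 members. The promoters of *Xbp1*, *Selenos*, *Atf4*, *Atf6b* and *Pdia4* held none of these 4 letter patterns in this window. A match is a description of the reference sequence and not of binding in these cells.

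In the ER degradation group, *Selenos* rose, none of the 10 genes fell, and the values of *Derl1*, *Syvn1* and *Edem1* lay higher in *Bbs8*-/- RPE without passing the threshold. The share past the threshold was 10%, against 12.3% of all tested genes. *Selenos* (ENSMUSG00000075701, chr7:66079649-66089405, + strand), a selenoprotein of the ER membrane that helps to pull misfolded proteins into the cytosol, was at 165, 153, 129 and 159 CPM in *Bbs8*+/+ and at 215, 201, 208 and 188 CPM in *Bbs8*-/- libraries. All 4 knockout values exceeded all wild-type values. The 1.34-fold rise from 152 ± 15.6 to 203 ± 11.6 CPM had a log2 fold change of 0.42 (SE 0.105, edgeR adjusted p = 0.00475). *Derl1*, which encodes Derlin-1, a channel component that binds the *Selenos* product, was at 45.4, 51.8, 51.1 and 58.7 CPM and at 66.5, 74.9, 69.2 and 69.9 CPM. These libraries did not overlap either, and the log2 fold change of 0.44 (SE 0.153) had an edgeR adjusted p of 0.0533 and a DESeq2 adjusted p of 0.0309. *Syvn1*, the ubiquitin ligase HRD1 at the centre of this machinery, was at 7.79, 22.8, 29.8 and 18.6 CPM and at 29.2, 45.5, 26.4 and 30.1 CPM. The single overlap came from *Bbs8*+/+ replicate 3 and *Bbs8*+/+ replicate 1 was far below the rest (log2 fold change 0.74, SE 0.276, edgeR adjusted p = 0.0743). Without *Bbs8*+/+ replicate 1 the log2 fold change of *Syvn1* was 0.47 (adjusted p = 0.253), and without *Bbs8*+/+ replicate 3 it was 1.01 and passed (adjusted p = 0.0214).

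*Edem1*, a lectin that passes misfolded glycoproteins on to degradation, had the largest log2 fold change of the 33 members on the fewest counts of those without overlap. Its libraries held 9, 4, 4 and 4 counts in *Bbs8*+/+ and 16, 13, 11 and 17 counts in *Bbs8*-/- RPE (1.92 ± 0.758 and 5.39 ± 1.03 CPM, log2 fold change 1.46, SE 0.663, edgeR adjusted p = 0.165). Other components of the same complex were at nearly equal means. *Sel1l*, the partner of HRD1, was at 117 ± 8.16 and 115 ± 6.40 CPM (log2 fold change -0.03, SE 0.118), and *Os9*, a lectin that brings substrates to it, was at 148 ± 2.21 and 144 ± 8.58 CPM (-0.04, SE 0.107). *Derl2* was at 27.8 ± 2.66 and 27.7 ± 3.17 CPM (-0.01, SE 0.217), and *Herpud1*, an ER stress-induced scaffold of the complex, was at 46.3 ± 4.65 and 52.8 ± 5.93 CPM (0.19, SE 0.169, adjusted p = 0.562). *Edem2* (0.06, SE 0.451) and *Derl3* (-0.23, SE 1.05) were too low for a precise estimate, *Derl3* with 0 to 6 counts per library. *Sec61b*, a subunit of the channel through which proteins enter the ER, was at 22.0, 55.2, 47.0 and 56.5 CPM and at 43.9, 52.3, 34.0 and 48.6 CPM. Apart from the low *Bbs8*+/+ replicate 1, these values overlapped (log2 fold change -0.01, SE 0.215, adjusted p = 0.989).

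The summed level of the members lay lower in *Bbs8*-/- RPE for 1 role and higher for 2 others, and each of these sums rested on few genes. The sensors and transcription factors together were at 449 to 506 CPM in *Bbs8*+/+ and 395 to 412 CPM in *Bbs8*-/- libraries, a ratio of 0.857 that came mostly from *Atf4*, since without it the ranges were 141 to 186 CPM and 128 to 173 CPM and overlapped. The folding genes were at 1437 to 1626 and 1640.2 to 1740 CPM (ratio 1.10) and the degradation genes at 547 to 601 and 630.0 to 684 CPM (ratio 1.15), both without overlap. *Selenos* gave 51.3 of the 86.8 CPM by which the degradation mean was higher. Without *Selenos* the ranges of 383 to 442 and 438 to 483 CPM overlapped, with a ratio of 1.08. *Derl1* and *Syvn1*, which did not pass the test, gave 18.4 and 13.0 CPM, and 4 of the 10 degradation genes had log2 fold changes below 0. Of the 158.5 CPM of the folding genes, *Calr*, *Canx* and *Pdia3*, which did not pass the test, gave 51.0, 38.7 and 30.3 CPM. *Pdia6* and *Manf*, which rose, gave 48.1 and 19.9 CPM, and *Pdia4* and *P4hb* gave -30.3 and -6.63 CPM. Without *Calr*, *Canx* and *Pdia3* the ranges of 405 to 473 and 443 to 492 CPM overlapped. Without *Pdia6* and *Manf* those of 1285 to 1493 and 1427 to 1523 CPM overlapped too. The arm of ATF4 and CHOP was at 160 to 178 CPM and 146 to 213 CPM, with the knockout libraries on both sides of the wild-type range. The sums are given as a description without a test.

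**Figure D3:**
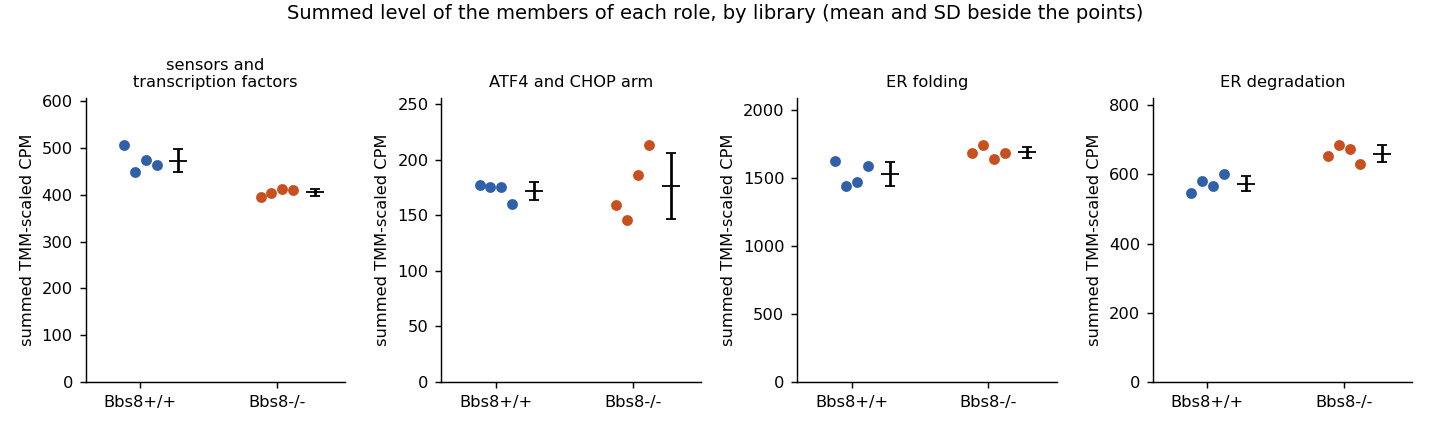
Summed level in TMM-scaled CPM of the members of each role in each library (*Bbs8*+/+ blue, *Bbs8*-/- orange), with mean and SD beside the points. The sum of the sensors and transcription factors lies lower, and those of the folding and the degradation genes lie higher, in every *Bbs8*-/- library, while the ATF4 and CHOP arm spreads from 146 to 213 CPM around the wild-type values.

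The 8 members past the threshold had means over all libraries between 39.5 and 285 CPM, and *Syvn1*, *Edem1* and *Sesn2*, whose log2 fold changes were larger in size than those of all 8 at means of 26.3, 3.65 and 6.29 CPM, did not pass. In the plot of level against fold change, *Edem1* and *Sesn2* stand out at the low end, where the standard errors were 0.663 and 0.488, against 0.0947 to 0.193 for the 8.

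**Figure D4:**
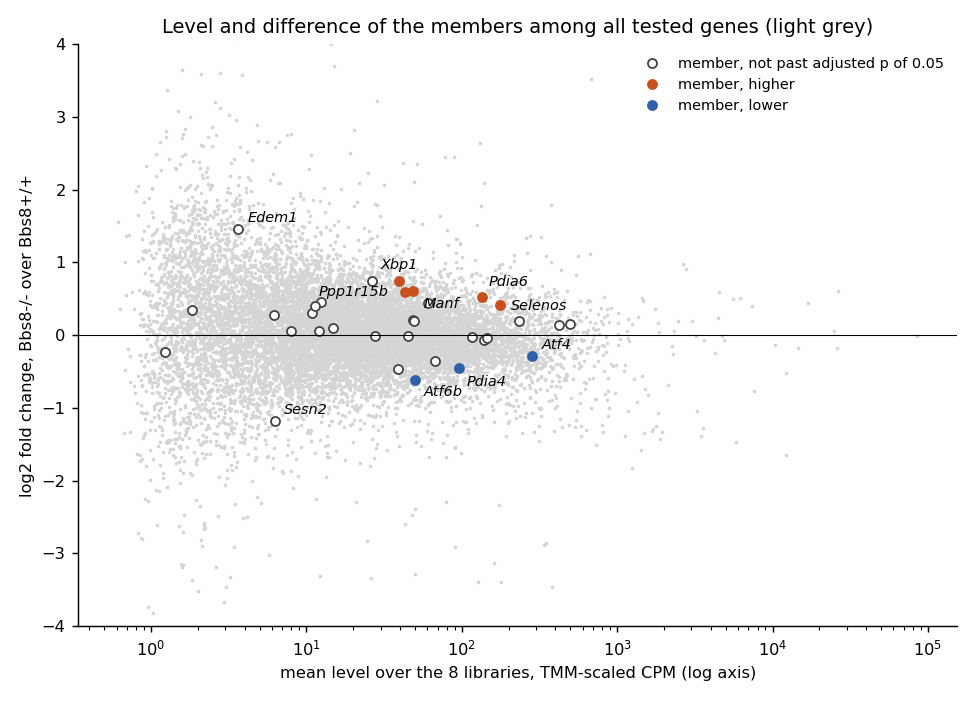
Mean level over the 8 libraries in TMM-scaled CPM (log axis) against log2 fold change (*Bbs8*-/- over *Bbs8*+/+) for all tested genes (grey), with 28 genes outside the plotted range of -4 to 4, and for the 33 members (open, or filled where past an adjusted p of 0.05). The members past the threshold lie at log2 fold changes between -0.62 and 0.74, and *Edem1* and *Sesn2* lie farther from 0 at low levels without passing.

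Outside the 34 genes, 122 further genes of the same pathway were listed by function, of which 117 were tested, 8 rose and 5 fell, together 11.1% against 12.3% of all tested genes. In the list of ER Hsp and J-domain chaperones, 2 of 8 rose and none fell, 25% against 12.3% of all tested genes. *Hspa5*, which encodes BiP, the main chaperone of the ER and the protein that holds the sensors inactive, was at 607, 587, 586 and 589 CPM in *Bbs8*+/+ and at 761, 736, 735 and 782 CPM in *Bbs8*-/- libraries. These values were tight within each genotype, did not overlap and rose by a log2 fold change of 0.35 (SE 0.0722, edgeR adjusted p = 6.23e-04). *Dnajb9*, an ER J-domain protein and a well-known XBP1 target, rose from 22.7 ± 6.33 to 42.0 ± 4.85 CPM (0.89, SE 0.217, adjusted p = 0.00375). The median of the 8 genes of this list was 0.06.

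Few of the further targets of ATF4 and CHOP passed the test. Of 27 tested among 30 listed, none rose and 2 fell (7.41%, against 6.8% of all tested genes called lower). They were *Gars*, the glycyl-tRNA synthetase (78.3 ± 7.05 to 57.1 ± 7.93 CPM, log2 fold change -0.46, adjusted p = 0.0393), and *Vldlr*, the lipoprotein receptor (295 ± 27.8 to 235 ± 11.4 CPM, -0.33, adjusted p = 0.0158), and the median of the list was -0.07. Scaled by the library total, neither passed (adjusted p = 0.110 and 0.0982), and both calls were also lost without *Bbs8*+/+ replicate 2, *Bbs8*+/+ replicate 4 or *Bbs8*-/- replicate 2, that of *Gars* also without *Bbs8*+/+ replicate 1, *Bbs8*-/- replicate 3 or *Bbs8*-/- replicate 4. The 11 eIF2 kinases and eIF2 factors held none past the threshold in edgeR, with 2 at an unadjusted p under 0.05, both lower, and a median of -0.16. The 20 other ER degradation genes likewise held none, with 2 at an unadjusted p under 0.05 and a median of -0.06. Of all tested genes, 12.3% passed the threshold in either direction.

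In the list of the translocon and signal peptidase, 3 of 16 genes rose and 2 fell, 31.2% against 12.3% of all tested genes, and the falls were at the edge of the threshold. *Spcs1* (58.4 ± 8.15 to 91.3 ± 11.4 CPM, log2 fold change 0.65, adjusted p = 0.00194) and *Spcs3* (6.39 ± 3.02 to 16.4 ± 6.22 CPM, 1.37, adjusted p = 0.0142), both subunits of the signal peptidase, rose with *Srpr*, the receptor of the signal recognition particle (24.3 ± 2.66 to 44.9 ± 10.7 CPM, 0.89, adjusted p = 0.00252). *Sec63* (-0.36, adjusted p = 0.0468) and *Ssr1* (-0.30, adjusted p = 0.0474), which assist the channel, fell, and passed in 4 and 6 of the 15 alternatives. Scaled by the library total their adjusted p were 0.155 and 0.189, and each left-out library except *Bbs8*+/+ replicate 2 for *Sec63*, and *Bbs8*+/+ replicate 1 and *Bbs8*-/- replicate 3 for *Ssr1*, ended the call. The rise of *Spcs3* did not pass without *Bbs8*+/+ replicate 1 (adjusted p = 0.0508) or *Bbs8*-/- replicate 4 (0.112). Among the other isomerases *Fkbp2* rose (0.81, adjusted p = 0.0381, passing without *Bbs8*+/+ replicate 3 or *Bbs8*-/- replicate 2 and not without any 1 of the other libraries, with adjusted p up to 0.142) and *Pdia5* fell, from 20.7 ± 8.01 to 6.40 ± 3.74 CPM (-1.68, adjusted p = 0.00155), which, like *Pdia4*, encodes a disulfide isomerase. *Lman1*, a cargo receptor that carries glycoproteins from the ER to the Golgi, was the single gene of 14 in the list of N-glycosylation and the lectin cycle to pass, with a rise from 304 ± 17.6 to 564 ± 18.2 CPM (0.89, SE 0.0816, adjusted p = 7.03e-11). Without *Lman1*, the summed list was at 928 to 1043 CPM in *Bbs8*+/+ and 871 to 1039 CPM in *Bbs8*-/- libraries. In the list of site proteases and ATF6 relatives, *Nfe2l1*, an ER-anchored transcription factor that drives proteasome genes, rose (0.42, adjusted p = 0.00465), and *Creb3l4* had 0 counts in every library.

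**Figure D5:**
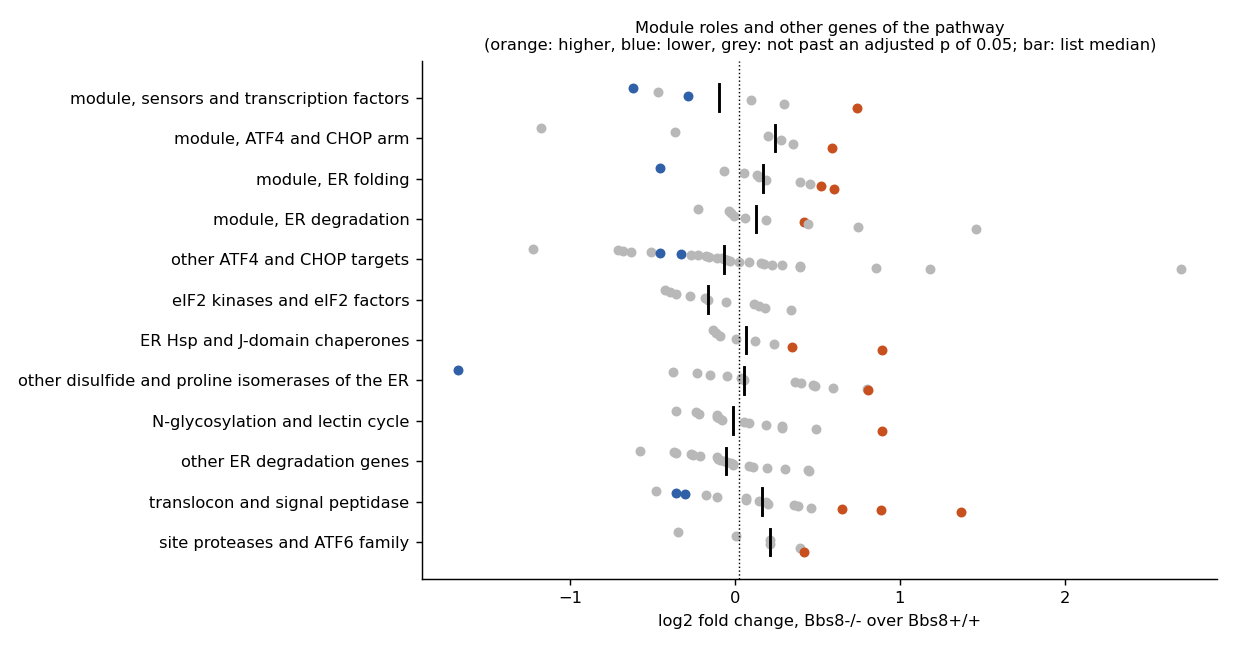
Log2 fold change (*Bbs8*-/- over *Bbs8*+/+) of every tested gene in 4 roles of the 34 members and in 8 lists of other genes of the pathway, with orange for higher, blue for lower and grey for genes not past an adjusted p of 0.05. Black bars mark list medians, which lie between -0.16 and 0.24, and the dotted line marks the median of all tested genes at 0.02.

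Markers of plasma cells, in which XBP1 and its targets are abundant, were at low levels. Of 8 markers of plasma and B cells 2 passed the filter and none passed the test, *Cd79a* and *Pou2af1* were at 0 in every library, and the sum was at 4.91 to 11.5 CPM in *Bbs8*+/+ and 9.43 to 18.8 CPM in *Bbs8*-/- RPE, a ratio of means of 1.62. Most of it was *Jchain*, at 3.68 to 8.92 and 5.59 to 13.5 CPM (adjusted p = 0.457), and *Sdc1*, at 0.818 to 1.49 and 0 to 6.40 CPM (adjusted p = 0.305), and their part in the rise of *Xbp1* was not tested. Summed markers of microglia and macrophages overlapped between genotypes (339 to 442 and 309 to 352 CPM, with 0 of 9 past the threshold). So did those of endothelium (33.5 to 43.3 and 40.2 to 51.6 CPM, 0 of 8). Most of the microglial sum was *Csf1r*, at 318 ± 51.4 and 263 ± 18.4 CPM, so it says little about the other microglial markers. Every *Bbs8*-/- library of *Csf1r* lay below every *Bbs8*+/+ library. For *Cd68* and the endothelial *Pecam1*, both at few counts, every one lay above. The sums of fibroblast markers overlapped too (1040 to 1395 and 971 to 1159 CPM), and 2 of 7 fell, *Col1a1* (-0.37) and *Col3a1* (-0.49, both adjusted p = 0.0183). Melanocyte markers were at 3719 to 4142 and 3704 to 3993 CPM, with *Mlana* the 1 of 6 to rise (0.54, adjusted p = 0.0166). Nearly all of this sum was *Dct*, at 3726 ± 203 and 3565 ± 136 CPM, so the sum says little about the other melanocyte markers. Markers of the surface epithelium were at 44.6 to 64.3 and 117 to 151 CPM, with 4 of 7 tested higher and *Krt12* at 0. Of all tested genes 5.46% were called higher and 6.8% lower. When the TMM factors were computed without photoreceptor, lens and erythrocyte genes, the same 8 members passed. This alters the scaling alone, so it cannot show how much of the members' RNA came from those cells. Of the 10 RPE markers 1 rose and 3 fell, 40% against 12.3% of all tested genes. *Ttr*, a secreted protein and the most abundant of the RPE markers, rose with a log2 fold change of 0.60 (edgeR adjusted p = 3.35e-16). The falls were those of *Rpe65* (-0.24, edgeR adjusted p = 4.67e-04), *Rdh5* (-0.26, adjusted p = 8.96e-04) and *Pmel* (-0.61, adjusted p = 2.04e-05). The part of *Ttr* and of these falls in the differences of the ER genes was not tested.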

How the data were processed

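Total RNA (30 ng) of isolated RPE at postnatal day 29 was made into QuantSeq 3′ libraries and read as single ends of 100 bp. The authors removed adapters and poly-A tails, used STAR and mm10 for alignment, and deposited the htseq-count counts of uniquely mapped reads per Ensembl gene without normalization. Between 32.8% and 34.5% of the reads of a library were recorded as not unique and left out of the library sizes, as were reads on no gene. Symbols and coordinates came from the GRCm38 annotation. *Ddit3* had 2 identifiers, and the one with more counts was used.

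The analysis used edgeR 4.0.16 in R 4.3.3 on genes that reached 1 CPM in 4 or more libraries, with TMM scaling, the quasi-likelihood F test, two-sided, genotype as the sole term, Benjamini-Hochberg adjustment over 12889 genes and a threshold of 0.05. Each standard error (SE), also in the figures, is the size of the log2 fold change divided by the square root of the F statistic. The filter of the study on multi-mapping reads was not repeated. CPM are TMM-scaled and, since each mRNA is read at its 3′ end, were not divided by length. The scripts were tested on simulated data. The members and lists were chosen with earlier results of these data known. All members are named, with every library for those past the threshold and for the sensors and the ATF4 and CHOP arm at a mean of at least 10 CPM, and in the pathway lists the genes past the threshold, at most 3 per direction with a mean of at least 10 CPM. Alternatives were DESeq2 1.42.0, other scalings and filters, a replicate block and leaving out each library. A library was noted when its gap to the nearest of its genotype exceeded 0.829 of the range (Dixon).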

Additional observations from a re-analysis of the deposited data

Results flagged for a closer look

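In 6 of the 68 sets of 4 libraries, 1 set for each member and genotype, a library lay far from the other 3 of its genotype by Dixon's criterion, which chance alone meets in about 1 in 20 sets. *Atf6* was at 39.4 CPM in *Bbs8*-/- replicate 2 and at 30.8 CPM or less in the other knockout libraries, and *Atf4* was at 231 CPM in the same library and at 261 CPM or more in the others. *Chac1* was at 4.54 CPM in *Bbs8*-/- replicate 4 and at 0 in the other 3. *P4hb* was at 152 CPM in *Bbs8*+/+ replicate 4 against at most 140 CPM, *Edem1* at 3.05 CPM in *Bbs8*+/+ replicate 1 against at most 1.64 CPM, and *Derl2* at 32.4 CPM in *Bbs8*-/- replicate 3 against at most 26.2 CPM. Of these genes, only *Atf4* passed the test between genotypes, and without *Bbs8*-/- replicate 2 its log2 fold change was -0.24 (edgeR adjusted p = 0.147).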

How the results depend on the processing

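*Xbp1*, *Pdia6* and *Selenos* passed the threshold in all 15 alternatives, *Atf6b*, *Ppp1r15b* and *Manf* in 12, and *Atf4* and *Pdia4* in 7, and none of these 8 changed direction. Between 5 and 9 members passed in each alternative. Against 5 higher and 3 lower, scaling by library size alone gave 8 higher and 1 lower, and leaving out 1 library gave 4 to 5 higher and 1 to 2 lower, with the lowest count of falls (1) without *Bbs8*+/+ replicate 4 or any 1 of the *Bbs8*-/- replicates. Of the other pathway genes, 5 fell, against 1 under library size, 3 with the size factors of DESeq2 in edgeR and 1 to 5 without 1 library. Replicate numbers did not pair the libraries (correlations of same-numbered libraries -0.03 to 0.01), and the fit with the replicate block called 6 members higher, with *Syvn1*, and 1 lower, without *Atf4* and *Pdia4*, and 3 of the pathway genes lower. Directions turned only for members whose changes had not passed. Under library size these were *P4hb* (0.020), *Sel1l* (0.062), *Derl2* (0.079), *Os9* (0.052) and *Sec61b* (0.078), with at least 5 CPM *Derl2* (0.0061) and *Sec61b* (0.0078), and with the block *Sec61b* (0.037). Leaving out 1 library gave ranges across 0 for *Eif2ak3* (-0.15 to 0.30), *Trib3* (-0.15 to 0.64), *Asns* (-0.080 to 0.72), *P4hb* (-0.12 to 0.017), *Hyou1* (-0.15 to 0.25), *Sel1l* (-0.068 to 0.0086), *Edem2* (-0.32 to 0.40), *Derl2* (-0.091 to 0.054), *Derl3* (-0.64 to 0.14), *Os9* (-0.068 to 0.0017) and *Sec61b* (-0.24 to 0.12). The cause of these turns was not tested. With 0 to 17 counts per library, as for *Trib3*, *Chac1*, *Derl3* and *Edem1*, depth limits what can be shown.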
